A study of Mus musculus with 48 samples.

Results

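The nuclear genes for mitochondrial ribosomal proteins were followed in nascent RNA of mouse embryonic stem cells. They were chosen by symbol alone (Mrpl or Mrps followed by a number, pseudogenes left out, nuclear chromosomes), which gave 78 of the 54752 genes counted, 49 with a large subunit (Mrpl) symbol and 29 with a small subunit (Mrps) symbol. Newly made RNA was labelled with 4-thiouridine (4SU), a uridine analogue, for 30 min in cycling cells and 15 min in synchronized cells, all grown in the medium labelled L2i. Cycling cells of the genotype FOXD3-iKO, an inducible knockout of the forkhead factor FOXD3, received 4-hydroxytamoxifen (4HT) or its solvent ethanol (EtOH) for 8, 14, 24 or 32 h (16 libraries). Cycling cells of the genotype OCT4-tetOff received doxycycline (DOX) or water (H2O) for 16 or 24 h (8 libraries). FOXD3-iKO cells held by a double thymidine block at the start of DNA replication were released after 24 h of 4HT or ethanol and collected at 0, 1, 2, 3, 4 or 5 h of release (24 libraries). Each of the 24 groups held 2 libraries. The sources used here do not give the removed part of Foxd3, the driver of the recombinase or the number of clones.

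Mitochondria carry their own ribosome, which translates the few membrane proteins of the respiratory chain that mitochondrial DNA (chrM) encodes. Its 2 rRNAs are transcribed inside the organelle by a dedicated polymerase, whereas every protein of the particle is encoded in the nucleus, transcribed by RNA polymerase II and imported. Many of these proteins have a bacterial counterpart and others were added in the mitochondrial lineage, so the particle needs both genomes to be built. Tamoxifen compounds and doxycycline can act on cells by themselves, and doxycycline is a known inhibitor of bacterial and mitochondrial ribosomes. No treated line without the induced allele is among the samples, so action of the drug and loss of the factor cannot be told apart.

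The promoters of these genes are known for binding sites of factors that serve nuclear genes of mitochondria, among them the ETS factor GABP, YY1 and NRF1. RefSeq promoter windows (GRCm38.p6, 250 bases before to 50 after the annotated start) were matched to 69 of the 78 members. For members the window nearest the counted gene start was taken. The windows of all promoters are the first listed for each symbol, whether or not the gene is expressed in these cells. No comparison with other expressed genes was made. The letters CCGGAAG (ETS, either strand) occurred in 24 of the 69 windows (34.8%) against 9.12% of all 27025 promoter windows, AAGATGGC (YY1) in 12 (17.4% against 2.88%), the palindromic core of the NRF1 site in 3 (4.35% against 0.977%) and the E-box CACGTG in 5 (7.25% against 7.24%). Both strands were searched, CCGGAAG and AAGATGGC can share the letters AAG where they adjoin, and a match describes the sequence, not a bound factor. The 5 stretches that follow belong to members on which the results turn. Mrpl17 had the smallest p of the members called lower after FOXD3 loss in synchronized cells, and Mrps12 was called lower in 3 comparisons. Mrpl34 fell most in cycling cells at 32 h, and Mrpl58 fell after OCT4 loss and holds 2 ETS matches. Mrps27 was called higher in synchronized cells, a call that turned with the scaling. Each runs 5′ to 3′ on the gene's strand from 250 bases before to 30 after the start. Capitals mark CCGGAAG and AAGATGGC, which read CTTCCGG and GCCATCTT where the match lies on the other strand.
Mrpl17 (chr7:105811058-105811337, minus strand): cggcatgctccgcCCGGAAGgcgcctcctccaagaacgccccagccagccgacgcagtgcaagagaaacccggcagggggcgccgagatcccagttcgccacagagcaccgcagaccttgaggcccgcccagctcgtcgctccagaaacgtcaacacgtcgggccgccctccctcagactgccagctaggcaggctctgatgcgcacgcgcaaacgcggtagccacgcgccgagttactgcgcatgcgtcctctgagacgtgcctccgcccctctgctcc
Mrps12 (chr7:28741792-28742071, minus strand): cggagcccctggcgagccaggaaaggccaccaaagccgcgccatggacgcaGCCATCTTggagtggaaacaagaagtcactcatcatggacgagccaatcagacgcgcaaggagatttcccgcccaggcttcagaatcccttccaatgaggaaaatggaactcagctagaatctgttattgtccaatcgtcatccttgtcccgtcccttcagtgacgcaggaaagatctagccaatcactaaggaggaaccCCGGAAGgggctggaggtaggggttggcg
Mrpl34 (chr8:71464676-71464955, plus strand): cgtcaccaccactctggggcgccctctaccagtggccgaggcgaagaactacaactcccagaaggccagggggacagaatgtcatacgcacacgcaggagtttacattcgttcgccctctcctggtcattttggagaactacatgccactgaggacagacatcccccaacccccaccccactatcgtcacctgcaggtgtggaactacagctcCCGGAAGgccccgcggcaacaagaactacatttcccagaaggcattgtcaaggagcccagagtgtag
Mrpl58 (chr11:115403502-115403781, plus strand): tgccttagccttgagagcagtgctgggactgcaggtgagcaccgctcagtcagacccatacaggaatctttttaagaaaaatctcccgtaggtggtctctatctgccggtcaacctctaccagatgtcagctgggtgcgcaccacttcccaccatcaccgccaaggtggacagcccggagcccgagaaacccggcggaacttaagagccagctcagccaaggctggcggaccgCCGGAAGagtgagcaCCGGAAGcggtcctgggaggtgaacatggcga
Mrps27 (chr13:99344536-99344815, plus strand): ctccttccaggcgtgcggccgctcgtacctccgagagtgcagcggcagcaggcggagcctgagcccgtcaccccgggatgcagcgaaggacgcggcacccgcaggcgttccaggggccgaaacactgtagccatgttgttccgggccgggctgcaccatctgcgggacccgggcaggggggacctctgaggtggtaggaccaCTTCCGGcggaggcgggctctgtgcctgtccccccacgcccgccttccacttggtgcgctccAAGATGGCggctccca
Among the 65 members with both a promoter window and a test in synchronized cells, 13 of the 42 called lower held CCGGAAG (31%) and 9 of the other 23 did (39.1%). AAGATGGC was found in 14.3% of the former and 26.1% of the latter.

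Totals ran from 21827951 to 30406124 counts in cycling FOXD3-iKO libraries, from 21113158 to 26112435 in OCT4-tetOff libraries and from 7953841 to 17936504 in synchronized libraries, and the members took 0.19 to 0.29% of them. Gm26917 and Gm42418, annotated genes that collect rRNA reads, took 3.41 to 43% of a library. The ethanol library of 32 h, replicate 1, stood apart from its partner in that share (14.3% against 28%), near the 4HT libraries of that time (13.9 and 12.5%). The synchronized ethanol libraries of 3 and 5 h stood further apart within their pairs, with shares of 25.4 and 4.77% at 3 h and 24.4 and 3.83% at 5 h in replicates 1 and 2. The targeted genes fell under each treatment in the fits used here: Foxd3 by 1.63 ± 0.28 on the log2 scale (SE) at 32 h and by 1.84 ± 0.14 in synchronized cells, and Pou5f1, the gene of OCT4, by 1.83 ± 0.13 at 24 h of doxycycline (edgeR adjusted p = 0.00286, 7.05e-09 and 1.06e-05). Of 8 pluripotent markers 7 passed the low-count filter, with summed levels of 2190 to 3593 CPM (counts scaled to library size) in all libraries but the doxycycline ones (957 to 1454), and Sox2 was listed at 0 in every library. Feeder fibroblast markers, of which 2 or 3 of 8 passed the filter, summed to 3.22 to 9.53 CPM in FOXD3-iKO libraries.

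Counts covered the whole gene interval, introns included, so levels between genes are given as TMM-scaled CPM per kb of interval. Mrps2 (small subunit, counterpart of bacterial S2) was highest in every experiment, with 12.6 ± 1.86 CPM per kb over the 24 synchronized libraries (mean ± SD) and 21.4 ± 3.11 over the 16 cycling FOXD3-iKO libraries. Mrpl15 (7.47 ± 0.756) and Mrps18b (7.04 ± 0.909) came next in synchronized cells and did not differ beyond their spread, nor did Mrpl12, Mrpl50 and Mrpl17, which followed (5.27 ± 0.942, 5.01 ± 1.11 and 4.87 ± 0.909). The median member stood at 2.54 CPM per kb in that experiment. The lowest tested members were Mrps23 (0.988 ± 0.162), Mrps26 (0.983 ± 0.17), Mrps28 (0.951 ± 0.288), Mrpl48 (0.719 ± 0.0723), Mrpl14 (0.682 ± 0.121) and Mrps36 (0.648 ± 0.0916). Each of these 6 overlaps its neighbours in mean ± SD. Mrps36 carries a ribosomal symbol for a protein that is a subunit of the oxoglutarate dehydrogenase complex.

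Among the 78 members 74 passed the low-count filter in all 3 experiments. Mrpl2, Mrpl53 and Mrps6 had 0 counts in every library, and Mrpl33 had 0 or 1. A count of 0 allows up to 3 counts, or 0.0987 to 0.377 CPM over all libraries, and this covers counting error only. At least 99.9% of the interval of each of these 4 genes lies inside other annotated genes, a position whose part in the missing counts was not tested. Another annotated gene overlaps 41 members, on the opposite strand for 35, and the sources used here do not give the strand setting of the counting, so values of those members are uncertain. Mrpl17, Mrpl40 and Mrps34 are the tested members wholly covered by another gene.

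In cycling FOXD3-iKO cells no member passed the test during the first day. At 8, 14 and 24 h after 4HT 0 of 74 members were called by edgeR (adjusted p under 0.05) and by DESeq2, with 1, 1 and 2 at an unadjusted p under 0.05, beside 0.0107%, 0.016% and 0.481% of all 18707 genes called. Member medians of the log2 fold change were 0.04, -0.04 and -0.04. The smallest p-values at 24 h were those of Mrpl34, at -0.33 (edgeR adjusted p = 0.457), and Mrps14, at -0.20 (adjusted p = 0.513).

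At 32 h 5 members had fallen and 0 had risen. They were Mrpl34, Mrpl36 and Mrpl30, large subunit proteins with bacterial counterparts, Mrpl52, a mitochondria-specific large subunit protein, and Mrps12, the counterpart of bacterial S12 at the decoding site. That is 6.76% of the members, beside 4.59% of all genes called lower and 4.88% called higher (9.47% called in all). The median over members was -0.18, with 66 of 74 below 0, and that over all genes was -0.05. Because the samples are bulk, fewer cells of a type and less RNA per cell cannot be told apart, and 3 of 5 primitive endoderm and 2 of 6 trophectoderm markers were called higher at 32 h, whose part in the members' change was not tested.

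Mrpl34, at 789 bases the shortest member (chromosome 8, 71464959 to 71465747), had 4.37 and 4.82 CPM in the ethanol libraries and 2.66 and 2.29 CPM in the 4HT libraries of 32 h. Both treated libraries lay well below both controls, a change of -0.89 ± 0.15 on the log2 scale (SE, n = 2, edgeR adjusted p = 0.00206). Mrpl36 had 6.94 and 10.4 CPM with ethanol and 4.7 and 5.19 CPM with 4HT (-0.81 ± 0.21, adjusted p = 0.0273). The controls of Mrpl36 differ from each other by more than the lower control differs from the treated libraries. Mrps12 had 8.41 and 12.7 CPM with ethanol and 7.69 and 5.78 CPM with 4HT (-0.65 ± 0.18, edgeR adjusted p = 0.0324). Its ethanol replicate 1 was close to the higher 4HT library. Mrpl52 fell by 0.44 ± 0.12 and Mrpl30 by 0.32 ± 0.09 (edgeR adjusted p = 0.0359 and 0.0433). The stalk proteins recruit translation factors to the ribosome, and their genes Mrpl12, Mrpl10 and Mrpl11 stood at -0.45, -0.18 and -0.36 without passing the test (edgeR adjusted p = 0.0689, 0.316 and 0.165).

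The count at 32 h rested on few libraries. Counts with a library left out are given without the count over all genes and are not read as a result about the members. Without ethanol replicate 1 of 32 h, 32 members were called lower, and the library's part in the main count was not tested further. Without ethanol replicate 2 or 4HT replicate 2 of 32 h 1 was called. Leaving out 4HT replicate 2 of 14 h gave 8, ethanol replicate 2 of 24 h gave 3, and each of 4HT replicate 1 of 32 h, ethanol replicate 1, 4HT replicate 1 and 4HT replicate 2 of 24 h, and 4HT replicate 1, ethanol replicate 2 and 4HT replicate 2 of 8 h gave 2. A fit of the 4 libraries of 32 h alone called 0 of 74, beside 194 of all genes, where the reported fit called 1771 genes. Scaling by total counts alone moved the median of all genes to 0.12 and that of members to -0.01. It called 1 member higher and 1 lower, beside 1562 and 239 of all genes. Total counts outside Gm26917 and Gm42418 left 1 called lower, beside 289 of all genes. The joint test of a response that differs between 8, 14, 24 and 32 h called 0 members in edgeR and DESeq2 (5 at an unadjusted p under 0.05, 0.454% of all genes called), with the smallest p at Mrpl34 (32 h less 8 h, -1.12, edgeR adjusted p = 0.0721).

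**Figure D1:**
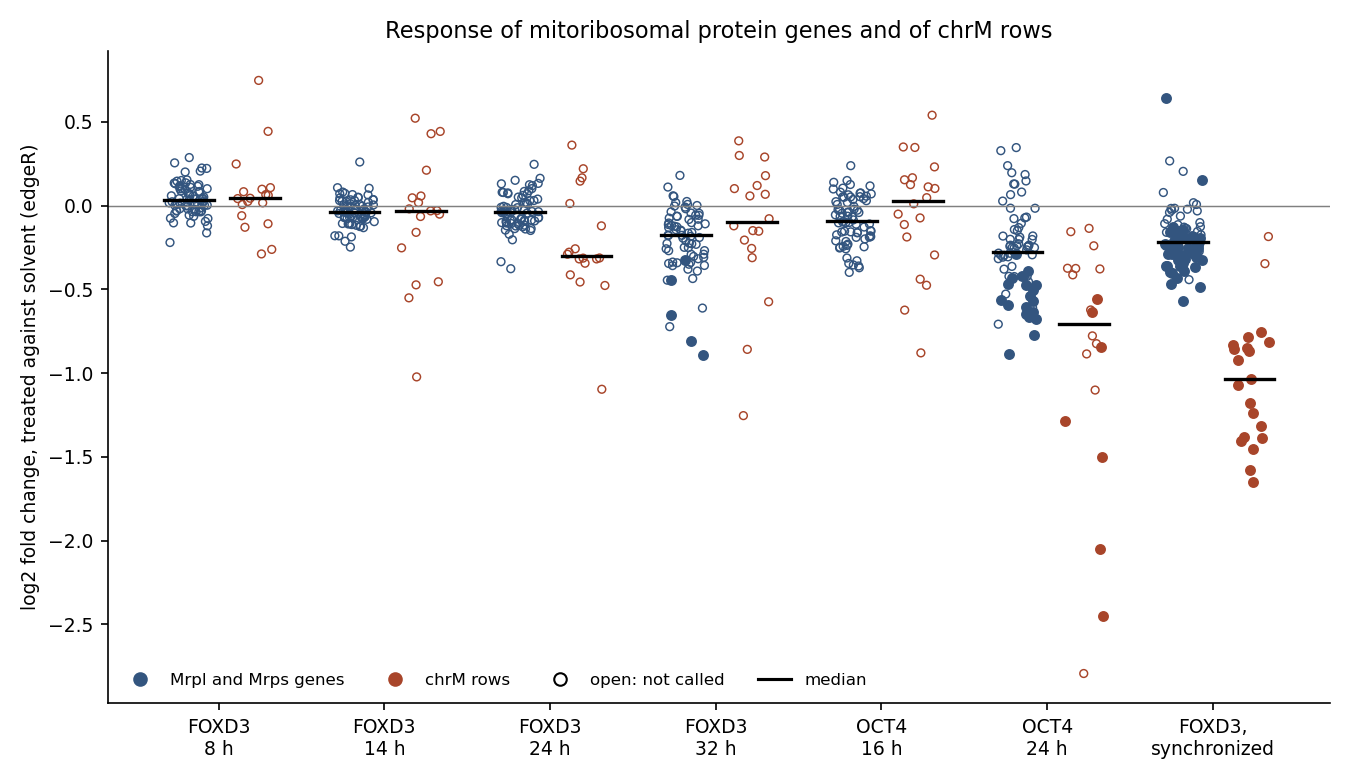
Each point is 1 gene's log2 fold change against solvent (y axis) in 7 comparisons (x axis), for the tested Mrpl and Mrps genes (blue, left) and the tested chrM rows (red, right); filled points passed edgeR's test and black bars are medians. Members spread around 0 at 8, 14 and 24 h of FOXD3 loss, 5 are filled below 0 at 32 h and 19 at 24 h of OCT4 loss, and in synchronized cells the member median is -0.21 while that of chrM rows is -1.04.

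Genes of both subunits were among those called lower after OCT4 loss, where drug and factor loss cannot be told apart. At 24 h of doxycycline 19 of 74 members had fallen and 0 had risen, 25.7% of them beside 18.7% of all 17713 genes called lower and 18.1% called higher (36.9% in all). The median over members was -0.27, with 63 of 74 below 0, against -0.01 over all genes. Large subunit symbols gave 11 of 46 called and small subunit symbols 8 of 28, and members with a bacterial counterpart gave 13 of 45 and mitochondria-specific ones 6 of 28. Markers of other cell types moved too: all 7 tested pluripotent markers fell, 4 of 6 trophectoderm markers rose (summed levels of 50.5 to 68.7 CPM with water and 112 to 147 with doxycycline over both times) and 4 of 5 primitive endoderm markers rose (11.8 to 14.6 and 27.8 to 60 CPM). Feeder fibroblast markers summed to 4.72 to 5.97 CPM with water and 8.96 to 11.7 with doxycycline, with 2 of 3 tested called higher at 24 h. Of these 3 Pdgfra is also on the primitive endoderm list. Col1a1 did not rise, with 0.672 and 0.655 CPM with water and 0.24 and 0.554 CPM with doxycycline at 24 h. For all of these their part in the members' change was not tested.

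Mrpl28, counterpart of bacterial L28, fell most among the called members. It had 14.9 and 13.4 CPM with water and 8.27 and 7.05 CPM with doxycycline at 24 h, a change of -0.89 ± 0.13 (SE, n = 2, edgeR adjusted p = 0.000678). The groups are separated by more than the spread within either. Mrpl12, the L7/L12 protein of the stalk, had 35.7 and 28.8 CPM with water and 21.8 and 18.5 CPM with doxycycline (-0.68 ± 0.12, adjusted p = 0.00256). Its stalk partners Mrpl10 and Mrpl11 had -0.25 and -0.42 and did not pass the test (adjusted p = 0.133 and 0.125). Mrpl47, the counterpart of bacterial L29, had 28.2 and 24.8 CPM with water and 18.4 and 16.8 CPM with doxycycline (-0.59 ± 0.11, adjusted p = 0.00272). Mrpl18 had 34.9 and 28.4 CPM with water and 22.5 and 19.2 CPM with doxycycline (-0.60 ± 0.13, adjusted p = 0.0055). For each of these genes water replicate 1 was the highest library and doxycycline replicate 2 the lowest.

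Mrpl58, a peptidyl-tRNA hydrolase built into the large subunit, fell by 0.47 ± 0.11 (edgeR adjusted p = 0.00715). Mrps12 at the decoding site had 11.3 and 10.6 CPM with water and 8.34 and 6.68 CPM with doxycycline (-0.54 ± 0.14, adjusted p = 0.0134). Of the 3 Mrps18 paralogues Mrps18b fell by 0.42 ± 0.11 (adjusted p = 0.0175), while Mrps18a and Mrps18c stood at 0.03 and 0.08 (adjusted p = 0.833 and 0.741). Mrps25, Mrps5, Mrpl49, Mrpl4 and Mrpl55 were also among the 12 smallest p-values, with changes of -0.39 to -0.67. Mrpl45, which ties the ribosome to the inner membrane, had -0.18 (adjusted p = 0.266), and Mrps36, no ribosome subunit, had 0.13 (adjusted p = 0.465).

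**Figure D2:**
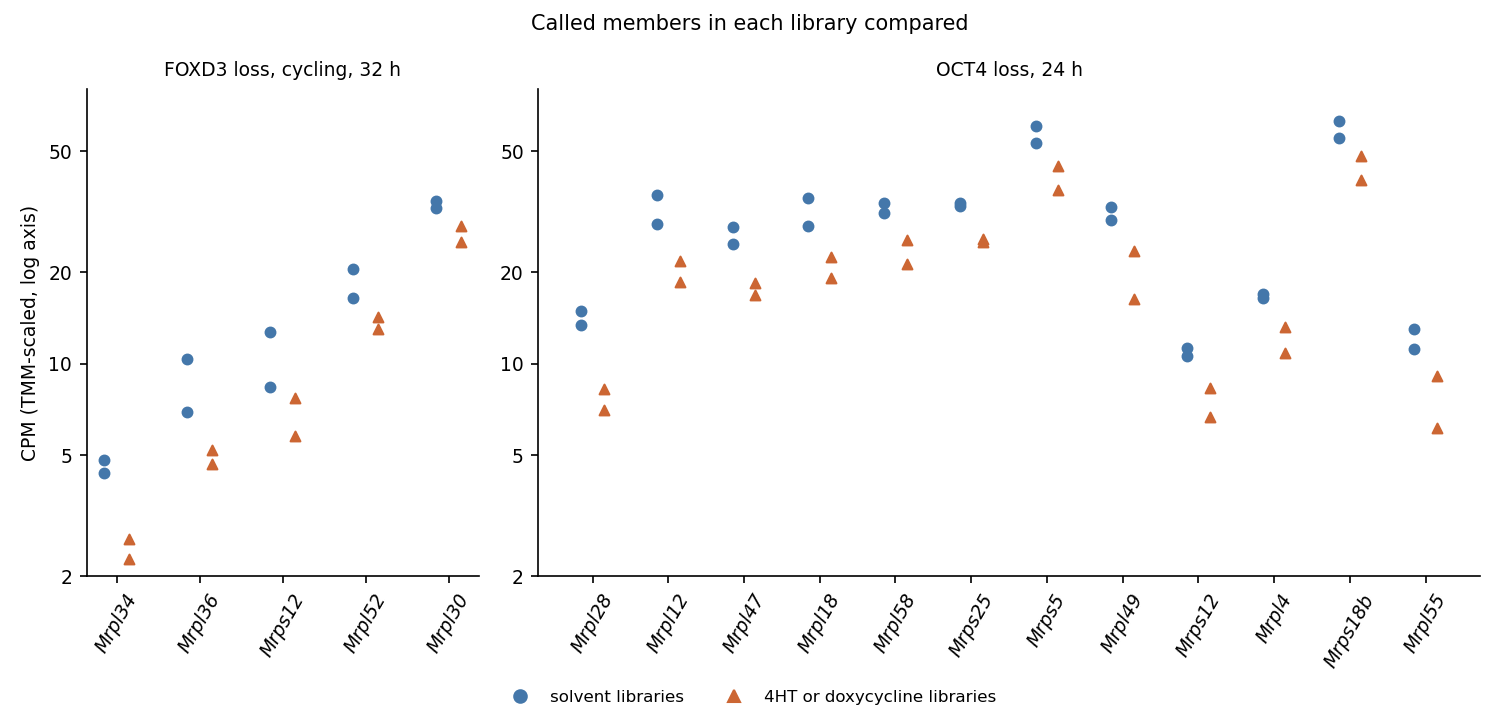
TMM-scaled CPM on a log axis (y) of the 5 members called at 32 h of FOXD3 loss (left) and of the 12 with the smallest p at 24 h of OCT4 loss (right), 1 point per library, circles for solvent and triangles for 4HT or doxycycline. In each gene drawn both treated libraries lie below both solvent libraries, with the smallest gap in Mrps12 at 32 h (7.69 against 8.41 CPM).

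At 16 h of doxycycline edgeR and DESeq2 called 0 members, with 7 at an unadjusted p under 0.05, beside 16.9% of all genes called. That count depended on the fit. The 4 libraries of 16 h alone gave 17 (16 lower), and removal of the trend on length 8 (7 lower). The replicate block gave 3, and RLE factors or no low-count filter 2. Calls over all genes rose too, from 2986 to 6506 (3254 lower), 5314, 3464, 3011 and 3744 in that order. The smallest p-values were those of Mrpl28 (-0.40, edgeR adjusted p = 0.0548), Mrpl58 (-0.33, adjusted p = 0.0596) and Mrps5 (-0.31, adjusted p = 0.0844). The difference between 16 and 24 h was past the threshold for 0 members in edgeR and DESeq2 (5 at an unadjusted p under 0.05), beside 0% of all genes called by edgeR and 90 genes called by DESeq2. The count at 24 h moved with every library of that time: it was 6 without water replicate 1, 34 (1 of them higher) without water replicate 2, 44 (2 higher) without doxycycline replicate 1 and 8 without doxycycline replicate 2. The replicate block raised it to 30 (1 higher), and a fit of the 4 libraries alone gave 12. Calls over all genes were 6531 in the reported fit, 7409 with the block and 4215 in the fit of 4 libraries. For left-out libraries the count over all genes is not given here, so those counts are not read as a result about the members.

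FOXD3 loss and OCT4 loss were set against each other at 24 h in a joint fit. For 4 members the response to FOXD3 loss was higher than that to OCT4 loss, and for 0 it was lower (5.41%, beside 9.07% of all 18437 genes called higher, 7.4% lower and 16.5% in all). Mrpl28 had 10.4 and 10.8 CPM with ethanol and 9.39 and 10.7 CPM with 4HT, where its change was small beside the fall after doxycycline, and the responses differed by 0.82 ± 0.19 (edgeR adjusted p = 0.0158). Mrpl18 differed by 0.65 ± 0.18, Mrpl12 by 0.62 ± 0.18 and Mrps2 by 0.79 ± 0.24 (adjusted p = 0.0357, 0.0435 and 0.05, the last just under the threshold). Over all members the median difference was 0.27, against 0.02 over all genes. The experiments share no control. Foxd3 itself fell in OCT4-tetOff cells, with 21.2 and 20.2 CPM with water and 2.85 and 1.88 CPM with doxycycline at 24 h. The 2 losses are therefore not separate, and the part of Foxd3 in these differences was not tested. Markers of pluripotent cells differed too (7 of 7 called higher), and their part was not tested. Counts of members with a library left out are given without the count over all genes and are not read as a result about the members. The count was 0 without ethanol replicate 1, ethanol replicate 2 or 4HT replicate 2 of FOXD3-iKO cells or water replicate 1, 1 without 4HT replicate 1 or doxycycline replicate 2, 7 without water replicate 2 and 26 (1 lower) without doxycycline replicate 1.

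In synchronized cells the fall after FOXD3 loss was broad and shallow. Over all 6 release times 45 of 74 members were called lower and 2 higher, 60.8% and 2.7%, beside 18.4% and 18.6% of all 17739 genes (37% in all). The median change was -0.21 on the log2 scale, with 67 of 74 below 0, against -0.01 over all genes. Large subunit symbols gave 30 lower of 46 and small subunit symbols 15 lower and 2 higher of 28; members with a bacterial counterpart gave 31 lower of 45 and mitochondria-specific members 14 of 28. Of the markers, 2 of 6 trophectoderm genes were called higher and 1 lower (summed levels of 24.4 to 44.9 CPM with ethanol and 43.2 to 69.2 with 4HT) and 2 of 4 primitive endoderm genes higher (53.4 to 93.2 and 80 to 133 CPM), and their part in the members' change was not tested. The count stayed between 42 and 53 whichever library was left out. Without any single one of the ethanol libraries of 3 and 5 h, whose rRNA shares stood apart, it was 43 to 46. This experiment has 12 libraries in each arm, and its larger number of calls cannot be read against the cycling experiments, which have 2 a group.

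Mrpl17, counterpart of bacterial L17 beside the exit tunnel, had the smallest p. Its level was 34.2 CPM at the lowest, 45.1 at the median and 51.4 at the highest of 12 ethanol libraries, and 28.6, 33.3 and 36.1 CPM in the 12 4HT libraries. The arms overlap only between 34.2 and 36.1 CPM, and the change was -0.43 ± 0.05 (SE, edgeR adjusted p = 6.5e-06). Mrpl17 lies wholly inside another annotated gene, so its reads may belong in part to that gene. Mrpl30 ran over 22.3, 27.8 and 30.1 CPM (lowest, median, highest) with ethanol and 18.3, 19.7 and 23.8 CPM with 4HT (-0.40 ± 0.06, adjusted p = 5.11e-05). Mrpl16, of the tRNA-binding face of the large subunit, ran over 10.0, 15.2 and 17.8 CPM with ethanol and 8.14, 10.8 and 14.8 CPM with 4HT (-0.40 ± 0.06, adjusted p = 5.91e-05). In both the 4HT median lies below the lowest ethanol library or near it.

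Among the 45 of 74 members called lower were 3 stalk genes. Mrpl12 fell by 0.34 ± 0.07, Mrpl10 by 0.29 ± 0.06 and Mrpl11 by 0.24 ± 0.07 (edgeR adjusted p = 0.000554, 0.000523 and 0.0123). With the trend on length removed Mrpl12 and Mrpl10 kept the call and Mrpl11 lost it (-0.07, edgeR adjusted p = 0.382). Mrpl53, the remaining stalk gene, had no counts. The other members among the 12 smallest p-values were Mrpl46, Mrpl15, Mrpl19, Mrpl47, Mrpl50, Mrps30 and Mrpl40, at -0.23 to -0.39. Mrps12 at the decoding site fell by 0.29 ± 0.09 (adjusted p = 0.0179) and Mrps18a by 0.16 ± 0.05 (adjusted p = 0.0115). Both lost the call with the trend on length removed (edgeR adjusted p = 0.338 and 0.064). Mrps18b (-0.08), Mrps18c (-0.04), the tether Mrpl45 (-0.02) and Mrps36 (-0.16) did not pass the test (adjusted p = 0.28, 0.766, 0.767 and 0.0767). Mrpl28, the most lowered member after OCT4 loss, had 0.01 here (adjusted p = 0.967).

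The 2 members called higher are the 2 longest. Mrps28 (small subunit, 121773 bases, chromosome 3, 8802146 to 8923918) ran over 59.1, 86.0 and 143 CPM with ethanol and 94.5, 142 and 173 CPM with 4HT. Its 4HT median was close to the highest ethanol library, and the change was 0.64 ± 0.11 (edgeR adjusted p = 0.000185). Mrps27 (small subunit, a pentatricopeptide repeat protein, 70777 bases) ran over 115, 141 and 158 CPM with ethanol and 127, 158 and 174 CPM with 4HT. Its change of 0.15 ± 0.04 (adjusted p = 0.00796) turned to -0.057 when libraries were scaled by total counts alone and to -0.0093 by total counts outside the rRNA-collecting genes. Total counts alone moved the median of all genes to -0.21, and the member median of -0.42 under that scaling lay as far below it as under TMM. The calls were then 66 members lower and 1 higher, with 7413 of all 17739 genes lower and 796 higher, and with total counts outside Gm26917 and Gm42418 63 members lower and 1 higher, with 6198 genes lower and 1295 higher.

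The response was seen from 1 h of release onward in size but not shown to differ between times. Member medians were -0.02 at 0 h, then -0.24, -0.20, -0.28, -0.20 and -0.32 at 1, 2, 3, 4 and 5 h, where medians over all genes stayed between -0.05 and 0.02. The change was below 0 in 40 members at 0 h and in 63 to 68 at the later times. Both 4HT libraries lay below both ethanol libraries in 21 members at 0 h (28.4% of 74, beside 26.9% of all genes), and in 52, 42, 50, 32 and 48 members at 1 to 5 h, beside 27.4, 28, 24.8, 20.6 and 28% of all genes. The joint test of a response that differs between release times called 0 members in edgeR and DESeq2 (6 at an unadjusted p under 0.05; 0% of all genes called). Across times 31 members were below 0 at all 6, and Mrps28 alone was above 0 at all 6. In 0 members did all 12 4HT libraries lie below all 12 ethanol libraries, beside 0.163% of all genes.

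**Figure D3:**
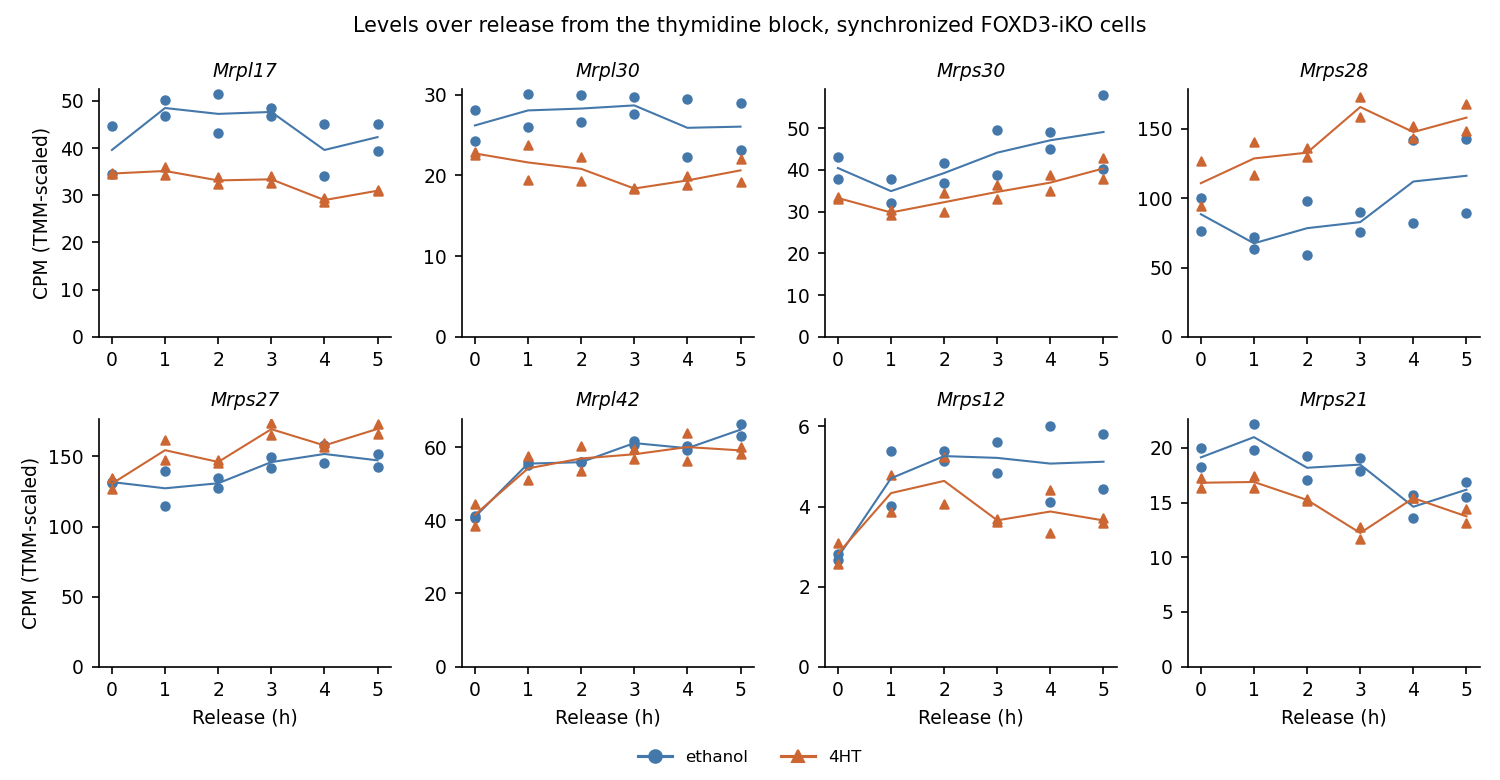
TMM-scaled CPM (y axis) of 8 members against hours of release (x axis) in synchronized cells, 1 point per library, lines through the means of 2, circles for ethanol and triangles for 4HT. Mrpl17 and Mrpl30 lie lower with 4HT, Mrps28 higher, and Mrpl42 climbs from about 41 CPM at 0 h in both arms; Mrps27 is drawn on the TMM scale, and its direction turned under scaling by total counts.

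Calls across release from the block depended on the fit. Within the ethanol arm 5 rose and 1 fell (6.76% and 1.35%, beside 9.3% and 10.1% of all genes), and within the 4HT arm 1 rose and 2 fell (1.35% and 2.7%, beside 6.76% and 8.61%). Mrpl42, a mitochondria-specific large subunit protein, rose in both arms. It had 40.7 and 41.2 CPM at 0 h and 63.2 and 66.4 CPM at 5 h with ethanol, and 44.5 and 38.5 CPM then 58.2 and 60 CPM with 4HT. Its change was 0.66 at 5 h with ethanol and 0.53 at 4 h with 4HT, where the differences from 0 h were largest (edgeR adjusted p = 0.00254 and 0.0106). Mrps12 rose in the ethanol arm, from 2.81 and 2.65 CPM at 0 h to 5.12 and 5.39 CPM at 2 h (0.95, adjusted p = 0.0469). Mrpl38, Mrpl24 and the stalk gene Mrpl12 rose in that arm by 0.71, 0.49 and 0.53 at 5 h (adjusted p = 0.0163, 0.0276 and 0.0495). Mrps21, counterpart of bacterial S21, fell by 0.38 at 4 h with ethanol and by 0.46 at 3 h with 4HT (adjusted p = 0.0252 and 0.0435), and Mrpl27, which lies near the catalytic centre, fell by 0.63 at 4 h with 4HT (adjusted p = 0.0429). Fitting each arm alone gave 0 calls with ethanol and 14 with 4HT (7 higher, 7 lower), beside 754 and 5518 of all genes. The replicate block gave 10 and 6 (6296 and 4271 of all genes). No low-count filter gave 11 and 4 (5952 and 4409 of all genes). Scaling by total counts alone left 0 calls in either arm. Total counts outside Gm26917 and Gm42418 gave 2 higher and 1 lower with ethanol and 0 higher and 3 lower with 4HT. Calls over all genes fell too, from 3441 and 2727 in the reported fit with ethanol and 4HT. They were 1779 and 1291 with total counts alone, and 2651 and 2636 with total counts outside Gm26917 and Gm42418. Calls in 1 arm only were not tested for a difference beyond the joint test above. Counts with a library left out are given without the count over all genes and are not read as a result about the members. The ethanol count was 3 without ethanol replicate 1 of 0 h, 1 without ethanol replicate 2 of 0 h and 14 without ethanol replicate 1 of 4 h or ethanol replicate 2 of 3 h. The 4HT count was 6 without either ethanol library of 3 h, and 1 when any of the following was left out: either library of 0 h in either arm, either ethanol library of 2 h, 4HT replicate 2 of 1 or 2 h, or either 4HT library of 3, 4 or 5 h.

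The chrM rows are the organelle's own genes. Their median change was further from 0 than that of the members in synchronized cells (-1.04 against -0.21) and at 24 h of OCT4 loss (-0.71 against -0.27), and nearer to 0 at 32 h of FOXD3 loss (-0.10 against -0.18). In synchronized cells 19 of 21 tested rows were called lower after FOXD3 loss and 0 higher, and mt-Te and mt-Tt were the rows not called. Of all genes 18.4% were called lower and 18.6% higher in that comparison. The mRNA of mt-Nd2, a complex I subunit, ran over 368, 502 and 925 CPM (lowest, median, highest) with ethanol and 115, 260 and 308 CPM with 4HT, so that the arms did not overlap (-1.24 ± 0.14, edgeR adjusted p = 2.19e-06). That of mt-Co1, the catalytic subunit of complex IV, ran over 1101, 1470 and 2148 CPM with ethanol and 534, 879 and 1072 CPM with 4HT (-0.85 ± 0.11, adjusted p = 7.2e-06). The rRNA rows were low: mt-Rnr2 had a median of 2.06 CPM with ethanol and 0.634 CPM with 4HT (-1.58 ± 0.24, adjusted p = 3.82e-05), and mt-Rnr1 fell by 1.32 ± 0.43 (adjusted p = 0.0202). Nuclear DNA holds near-identical copies of stretches of chrM, and the sources used here do not say how reads with several matches were counted, so levels between chrM rows are uncertain.

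Summed over the 21 tested rows, chrM gave 3935 to 8406 CPM in the 12 ethanol libraries and 1705 to 3656 CPM in the 12 4HT libraries, which do not overlap. The 74 tested members summed to 2095, 2251 and 2456 CPM (lowest, median, highest) with ethanol and 2057, 2151 and 2239 CPM with 4HT, which do. In cycling FOXD3-iKO cells 0 of 18 chrM rows were called at 8, 14, 24 or 32 h by edgeR or DESeq2 (4 at an unadjusted p under 0.05 at 24 h and 0 at the other times). Shares of all genes called by edgeR were 0.0107, 0.016, 0.481 and 9.47% in that order. With the trend on length removed 4 rows were called higher at 32 h, mt-Nd2 at 0.48, mt-Nd4 at 0.43, mt-Nd5 at 0.36 and mt-Tt at 0.88 (edgeR adjusted p = 0.00556, 0.016, 0.0369 and 0.0261). That fit called 7.32% of all genes higher and 6.62% lower. Without the low-count filter 1 row was called lower at 24 h, beside 92 of all genes. After OCT4 loss at 24 h 7 of 20 rows were called lower and 0 higher, beside 18.7% and 18.1% of all genes. The median over the rows was -0.71. The mRNA of mt-Nd1 had 2487 and 1685 CPM with water and 1572 and 1115 CPM with doxycycline (-0.63 ± 0.21, edgeR adjusted p = 0.0432), and mt-Rnr2 27.9 and 11.9 CPM then 3.98 and 3.32 CPM (-2.45 ± 0.69, adjusted p = 0.021). That count was 0 without water replicate 1 of 24 h, 1 without doxycycline replicate 2 of 24 h, 12 without water replicate 2 or doxycycline replicate 1 of 24 h and 4 without either water library of 16 h. Counts with a library left out are given without the count over all genes and are not read as a result about the rows. With the trend on length removed 2 rows were called lower, mt-Rnr1 and mt-Rnr2, and 2 higher, mt-Nd5 at 0.22 and mt-Tt at 0.77 (edgeR adjusted p = 0.013 and 0.000836), while mt-Nd1 had -0.15 (adjusted p = 0.179). All genes gave 24.3% lower and 22.2% higher in that fit. A fit of the 4 libraries of 24 h alone called 2, no low-count filter 13, all lower, beside 2236 and 3725 of all genes called lower. In synchronized cells the count was 18 or 19 whichever library was left out, and 18, all lower, with the trend on length removed.

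**Figure D4:**
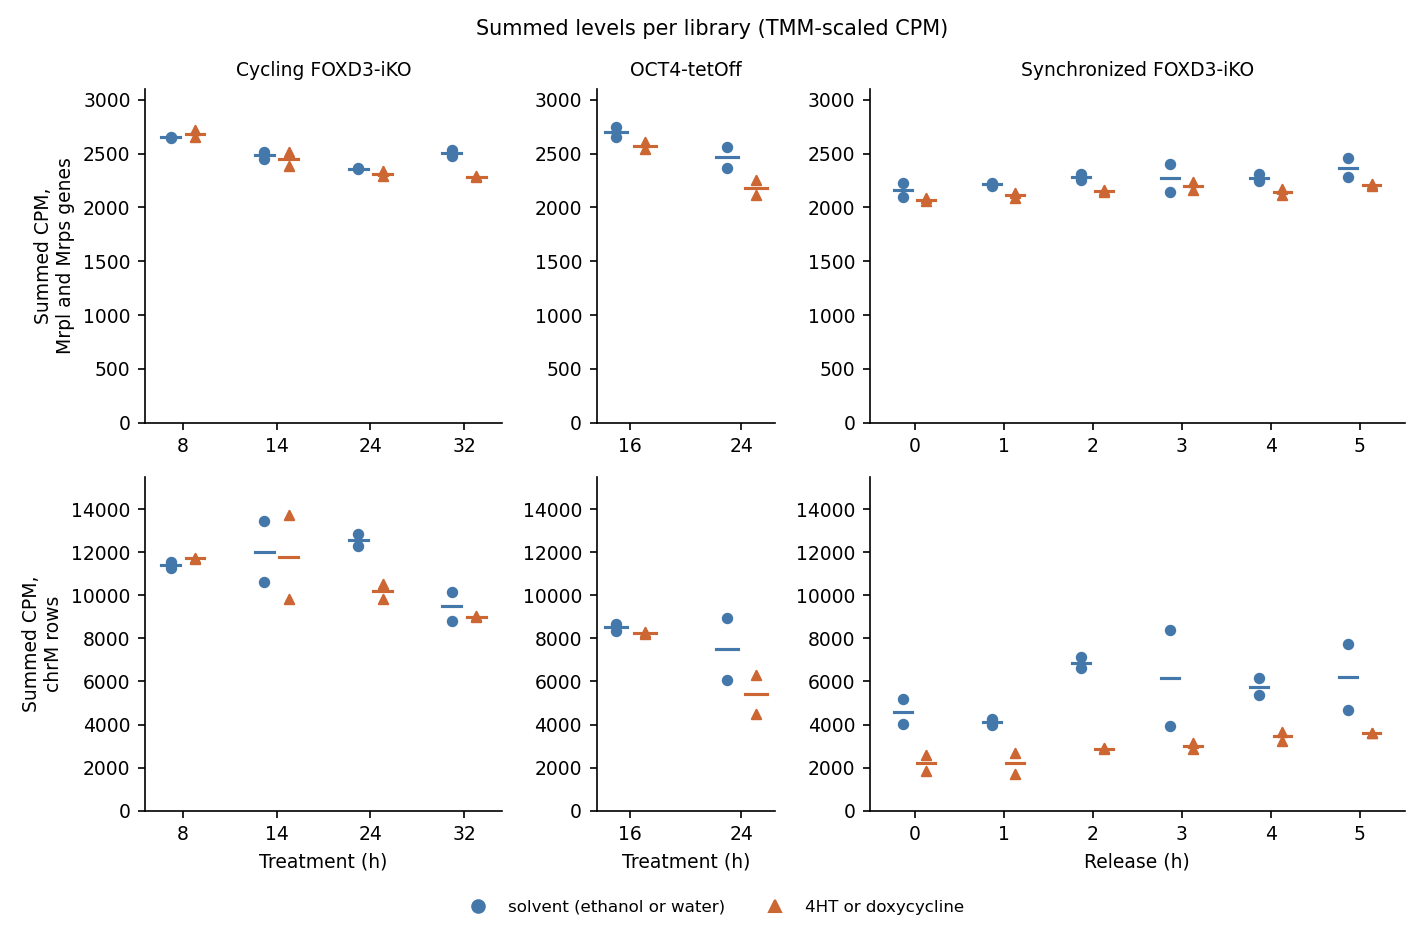
Summed TMM-scaled CPM of the 74 tested members (top row) and of the tested chrM rows (bottom row; 18, 20 and 21 rows from left to right) in each library (points) with group means (bars), against hours of treatment or of release. Member sums stay between 2057 and 2746 CPM in all libraries, whereas chrM sums in synchronized cells lie between 3935 and 8406 with ethanol and between 1705 and 3656 with 4HT.

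The members are short genes, and the median change of all genes was lower in the shorter bins. Their counted intervals have a median of 7899.5 bases against 23132 for all genes tested in synchronized cells, and 65 of the 74 are under 20 kb. Across genes, which are not independent replicates and share libraries and depth, Spearman's rho between interval length and log2 fold change was 0.53 over members and 0.47 over all genes in synchronized cells, 0.76 and 0.30 at 32 h of FOXD3 loss, and 0.64 and 0.31 at 24 h of OCT4 loss. Setting members beside genes of like length leaves a smaller gap. In the bin of 5 to 10 kb 27 members had a median of -0.23 and all genes of that length -0.16 in synchronized cells, -0.25 and -0.20 after OCT4 loss, and -0.18 and -0.16 at 32 h of FOXD3 loss. From 2 to 5 kb the 21 members had -0.27 against -0.20, -0.50 against -0.29, and -0.35 against -0.25 in the same order. Over all bins 51, 50 and 48 of 74 members lay below the median of their own bin.

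Among members under 20 kb, 44 of 65 were called lower in synchronized cells (67.7%) beside 29.1% of all genes under 20 kb. After OCT4 loss these were 29.2% and 24.1%, and at 32 h of FOXD3 loss 7.69% and 7.01%. With the trend on length removed from each library, 22 members were called lower and 1 higher in synchronized cells (29.7% and 1.35%, beside 12.7% and 13.4% of all genes), all 22 among the 45 called before, and Mrps28 kept 0.45 ± 0.07 (edgeR adjusted p = 8.84e-05) while Mrps27 had 0.01 (adjusted p = 0.905). The same step gave 25 lower and 3 higher after OCT4 loss, 17 of the lower among the 19, and 3 lower at 32 h of FOXD3 loss, with Mrpl34 and Mrpl36 among the 5. All genes were then called lower and higher in 24.3% and 22.2% (46.5% in all) after OCT4 loss, in 6.62% and 7.32% (13.9% in all) at 32 h and in 26.1% either way in synchronized cells. The part of gene length in the members' change was described here and not tested.

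**Figure D5:**
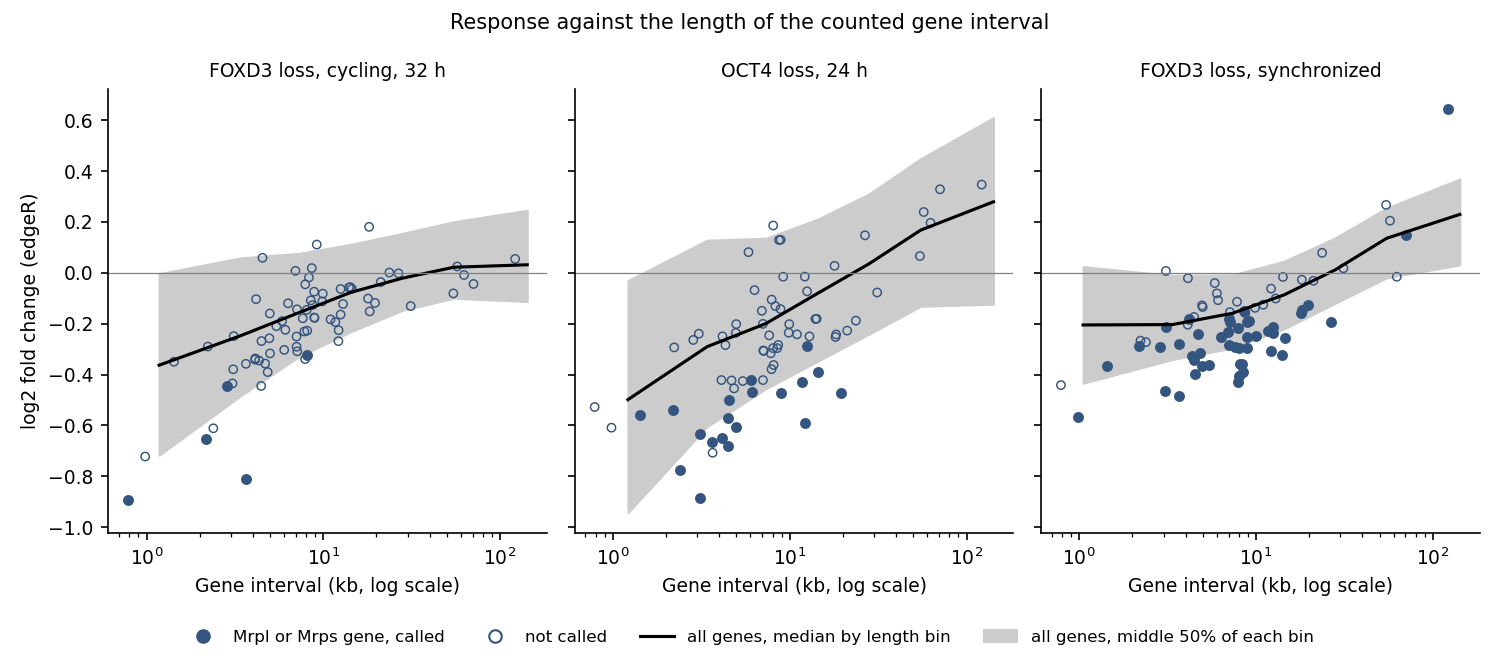
Log2 fold change (y axis) against the length of the counted interval in kb (x axis, log scale) for the 74 tested members (points, filled where called) in 3 comparisons, with the median (line) and the middle 50% (band) of all genes in 7 length bins. Members follow the rise of the line with length, and 51, 50 and 48 of 74 lie below the median of their bin in synchronized cells, after OCT4 loss and at 32 h of FOXD3 loss; Mrps27, filled in the panel of synchronized cells, turned direction under scaling by total counts.

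Members were called in more than 1 comparison. Of the 19 called lower after OCT4 loss 12 were among the 45 of synchronized FOXD3 loss. Of the 5 called at 32 h 4 were among the 45 and 1, Mrps12, was among the 19. The 12 of 19 are close to the share over all members, 45 of 74, and no excess is read from any of these counts. No chance level was computed for them, and Foxd3 itself fell under doxycycline. The rest of the machinery of mitochondrial translation held calls in both directions. In synchronized cells 18.4% of all genes were called lower and 18.6% higher (37% in all), and the lists are read beside that. There 10 of 25 genes of mitoribosome assembly and rRNA modification were called lower and 4 higher, with Rpusd4, a pseudouridine synthase, at -0.26, Rbfa, an assembly factor, at -0.31, and Trmt2b at 0.39 (edgeR adjusted p = 0.000181, 0.000262 and 1.25e-05). Translation factors gave 4 lower and 1 higher of 13, led by the initiation factor Mtif3 at -0.45 (adjusted p = 7.81e-06). Mitochondrial aminoacyl-tRNA synthetases, which charge tRNAs, gave 4 lower and 3 higher of 17, with Pars2 at -0.49 and Lars2 at 0.18 (adjusted p = 0.000474 and 0.00104). Of 6 mitoribosome subunits with other symbols 1, Chchd1, was called (-0.34, adjusted p = 0.00179).

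After OCT4 loss at 24 h, where 18.7% of all genes were called lower and 18.1% higher, the same lists gave 6 lower and 2 higher of 25 assembly genes (Mrm2 -0.57, Trmt2b 0.95), 3 lower of 13 translation factors (Guf1 -0.63), 6 lower of 17 synthetases (Pars2 -0.57) and 2 lower of 6 other subunits (Gadd45gip1 -0.58, Aurkaip1 -0.52), with edgeR adjusted p of 0.00121 to 0.0322 for those named. At 32 h of FOXD3 loss, beside 4.59% of all genes called lower, they gave 3, 0, 1 and 2 called, all lower, among them the helicase gene Ddx28 (-0.64, adjusted p = 0.0144) and Aurkaip1 (-0.67, adjusted p = 0.0135). Genes of mitochondrial transcription and replication, the machinery that makes the chrM RNAs, gave 5 lower and 2 higher of 14 in synchronized cells and 4 lower and 1 higher after OCT4 loss, where Tefm, the elongation factor of that transcription, fell by 0.66 ± 0.14 (edgeR adjusted p = 0.00657).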

How the data were processed

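Nascent RNA was counted per gene in 48 libraries. The authors deposited raw counts over whole gene intervals in 3 tables; STAR, featureCounts and mm10 are named, per the submitters' processing notes, and the sources used here give neither versions, roles nor the strand setting. Members and gene lists were chosen with earlier results of these data known. Each table was tested alone with edgeR 4.0.16 in R 4.3.3 (TMM, filterByExpr with a minimum count of 10, quasi-likelihood test, Benjamini-Hochberg over all genes, calls at an adjusted p under 0.05), except for the joint fit of 24 h. SE is |log2 fold change|/sqrt(F). Alternatives used DESeq2 1.42.0, other scalings, no filter, left-out libraries and, with limma 3.58.1, removal of a loess trend on length (span 0.3). The scripts were tested on simulated data. The text names, per comparison, up to 12 called members of smallest p (3 if none was called), the 6 highest and 6 lowest per kb, the stalk, Mrps12, Mrps18, Mrpl45, Mrps36, chrM rows and up to 4 called genes of each other list. Nothing says that replicates came from separate cultures, so p-values measure the spread between these libraries, which may be technical. No replicates held identical values.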

Additional observations from a re-analysis of the deposited data

Results flagged for a closer look

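For 4 of 74 members a test of the difference itself found a higher response to FOXD3 loss (4HT against ethanol) than to OCT4 loss (doxycycline against water) at 24 h. Of all 18437 genes 9.07% were called higher and 16.5% either way, and no excess of members is read from the count. The log2 differences were 0.82 for Mrpl28, 0.65 for Mrpl18, 0.62 for Mrpl12 and 0.79 for Mrps2 (edgeR adjusted p = 0.0158, 0.0357, 0.0435 and 0.05, n = 2 a group). Mrps2 had 60.5 and 61.5 CPM with ethanol and 62.7 and 72.7 CPM with 4HT, and 71.2 and 59.9 CPM with water and 50.6 and 33.9 CPM with doxycycline. Its lowest value was that of doxycycline replicate 2, and the number of members called changed with the library left out.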

How the results depend on the processing

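Removing the trend on length moved the calls to 23 for FOXD3 loss in synchronized cells and 3 at 32 h of FOXD3 loss. It gave 8 at 16 h of OCT4 loss and 11 for FOXD3 loss against OCT4 loss. Calls over all genes were then 4632, 2608, 5314 and 5086 in that order. Without the low-count filter there were 3 calls for the response differing between 8, 14, 24 and 32 h, 3 for that differing between release times, 2 at 16 h and 29 at 24 h of OCT4 loss, 7 for the joint fit and 11 for release with ethanol. Calls over all genes were then 600, 1738, 3744, 7462, 4270 and 5952 in that order. The reported fits called 85, 0, 2986, 6531, 3038 and 3441 genes. Total counts alone gave 2 calls at 32 h, 1 in the joint fit and 0 for release with either ethanol or 4HT. All genes then gave 1801, 2855, 1779 and 1291 calls in that order. Total counts outside Gm26917 and Gm42418 gave 1, 1 and, with ethanol, 3, beside 1091, 2642 and 2651 of all genes. RLE factors gave 2 at 16 h of OCT4 loss, beside 3011 of all genes. Fitting only the groups compared gave 0 at 32 h and 17 and 12 at 16 and 24 h of OCT4 loss. It gave 0 and 14 for release with ethanol and 4HT. Calls over all genes in those fits were 194, 6506, 4215, 754 and 5518 in that order. Where fitting only the groups compared is the reported fit, no second value is given.

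The labels do not say that a replicate number marks a shared batch, and not every pair of groups correlated above 0.1, so the numbers were not taken as pairs: same-numbered libraries correlated above 0.1 in 4 of 28 group pairs of cycling FOXD3-iKO cells, 2 of 6 of OCT4-tetOff cells and 43 of 66 of synchronized cells, where most pairs did. With the replicate block the calls were 3 and 30 at 16 and 24 h of OCT4 loss, 2 in the joint fit, 10 and 6 for release with ethanol and 4HT, 4 at 32 h of FOXD3 loss and 51 in synchronized cells, and 0 in the other comparisons. Where members were called, calls over all genes were 3464, 7409, 2697, 6296, 4271, 1555 and 7178 in that order. Crossed numbers, added after seeing the data, gave 0 at 16 h of OCT4 loss.

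With single libraries left out, calls ranged from 1 to 32 at 32 h of FOXD3 loss, from 0 to 2 for its difference between times (2 without ethanol replicate 1 of 32 h), from 0 to 4 and from 6 to 44 at 16 and 24 h of OCT4 loss, from 0 to 26 in the joint fit, from 42 to 53 in synchronized cells, and from 1 to 14 and from 1 to 6 for release with ethanol and 4HT. They stayed at 0 to 0 at 8, 14 and 24 h of FOXD3 loss, between 16 and 24 h of OCT4 loss and between release times. The change of Mrps27 in synchronized cells reversed to -0.057 with total counts alone and to -0.0093 with total counts outside Gm26917 and Gm42418. For 46 called gene results 1189 pairs of a result and a setting were compared. Of these pairs 986 kept direction and call, 201 kept direction without the call and 2 reversed. Of the 46 results 18 kept direction and call in every setting. The 46 were taken from the called members of smallest p in each comparison and from called stalk, Mrps12 and Mrps18 genes. Other calls were left out, so the tally does not give the stability of all called members. With 2 libraries a group in cycling cells, member counts rest on single libraries. The ranges over left-out libraries are given without the count over all genes.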

Other observations

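The nuclear regulators of mitochondrial genes were described as a list of 10, beside the shares of all genes called in each comparison (37%, 36.9% and 9.47% in synchronized cells, after OCT4 loss at 24 h and at 32 h of FOXD3 loss). In synchronized cells 3 were called lower and 3 higher after FOXD3 loss, with the nuclear receptor gene Esrra at -0.41 and Nrf1, whose product binds promoters of mitochondrial genes, at 0.31. Over all genes the median change there was -0.20 from 2 to 5 kb and 0.23 over 80 kb. The part of gene length in the regulators' changes was not tested. After OCT4 loss at 24 h 4 were called lower and 0 higher: the coactivator genes Ppargc1b (-2.21) and Pprc1 (-0.43), and Myc (-1.91) and Mycn (-1.04). At 32 h of FOXD3 loss 1 was called, Ppargc1b at -0.78. During release with ethanol mt-Nd6, the mRNA on the light strand of chrM, rose by 2.22 on the log2 scale, from a mean of 85.3 CPM at 0 h to 399 CPM at 2 h. Of 21 tested chrM rows 4 were called higher over release with ethanol and 3 with 4HT, beside 9.3% and 6.76% of all genes. The test of a FOXD3 response that differs between release times called 0 chrM rows.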
